A study of Arabidopsis thaliana with 24 samples.

Results

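Leaves of the Arabidopsis thaliana double mutant dpe2/phs1 were compared by age: mature leaves (dM) against young leaves (dY), both harvested 5 weeks after germination in the Reduced Granule Number Period (RGN), the stage that the labels call the Retard Period. The libraries were chosen by their genotype, stage and leaf labels, 3 of dM and 3 of dY, 6 of the 24 libraries of the series. Mature (wM) and young (wY) leaves of the wild-type accession Col-0, of the same age and with 3 libraries each, served to show where the leaf contrast of the mutant differed. Both dM and dY carry the same lesions in DPE2, the cytosolic disproportionating enzyme of maltose breakdown, and in PHS1, the plastidial α-glucan phosphorylase. These lesions are present in the whole plant, so dM and dY differ by leaf, not by genotype. All 4 groups were leaves with their petioles from soil-grown plants kept under a light/dark regime and harvested in the light, and young leaves were the youngest leaves of the rosette. Leaf age in days was not given in the sources used here.

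Leaf ageing ends in senescence, a genetically controlled programme in which the leaf dismantles its chloroplasts and exports nitrogen, sulfur and other nutrients. NAC and WRKY transcription factors switch on genes for chlorophyll breakdown, vacuolar proteases, autophagy and amino acid transport, while genes for photosynthesis and growth decline. Young leaves still divide and expand, so a contrast of mature with young leaves also holds the end of cell division and the change in the mix of cell types. In a bulk sample, fewer cells of a type and less RNA per cell cannot be told apart.

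RNA was measured by sequencing and given per gene as FPKM, fragments scaled by gene length and by the mapped reads of the library. The dM libraries held 17504383 to 19447298 reads assigned to genes and the dY libraries 20392448 to 23368510, read back from the steps of the values, so 3 reads on a gene of 1 kb stood for 0.128 to 0.171 FPKM. Of 33044 genes, 19575 averaged at least 1 FPKM in at least 1 of the 8 groups of the series and were tested. Fold changes are given on the log2(FPKM + 1) scale with their standard error, dM over dY, which understates the change of genes near or below 1 FPKM. A gene was called higher or lower at a Benjamini-Hochberg adjusted p under 0.05 in limma. The labels number the replicates but do not say whether they came from separate plants, so the p-values measure the spread between these libraries.

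Mature and young leaves of dpe2/phs1 differed in most of the expressed genes. In dM leaves 5182 genes were higher (26.5% of those tested) and 8074 were lower (41.2%), 13256 in all (67.7%). A change of more than 2-fold was found for 1660 of the higher and 3449 of the lower genes, and the 3 dM and 3 dY values did not overlap for 13491 genes. The median gene stood at -0.16 on the log2 scale. Higher genes made up 39.1% of all calls on the deposited scale, but 53.4% (7130 higher, 6225 lower, median 0.05) once the libraries were scaled by median-of-ratios size factors and 49.4% after quantile scaling, so the balance between higher and lower calls rested on the scaling. Size factors were 0.97 to 1.05 in dM and 1.19 to 1.26 in dY libraries.

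The same contrast in Col-0 was smaller. There 3688 genes were higher in wM (18.8%) and 4933 lower (25.2%), 8621 in all (44.0%), and 1110 and 1232 of them changed more than 2-fold. The test of the difference between the 2 contrasts called 9545 genes (48.8%), of which 4078 moved further up, or less far down, in dpe2/phs1 (20.8%) and 5467 further down, or less far up (27.9%). Of the 5182 genes higher in dM, 2162 were also higher in wM, 424 were lower and 2596 had no call. Of the 8074 genes lower in dM, 3268 were also lower in wM, 528 were higher and 4278 had no call.

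The 2 mutated genes were read first. PHS1 (AT3G29320) fell in mature leaves: it stood at 12.3, 9.90 and 9.70 FPKM in dM leaves, against 28.6, 23.5 and 24.2 FPKM in dY leaves, and the groups did not overlap (-1.19 ± 0.20, limma, adjusted p = 2e-05). DPE2 (AT2G40840) was higher in the mature leaves, at 35.8, 38.4 and 37.8 FPKM in dM leaves, against 19.1, 27.7 and 27.7 FPKM in dY leaves (0.59 ± 0.17, limma, adjusted p = 0.0048). Its difference from the Col-0 contrast did not pass the test (0.26 ± 0.24, limma, adjusted p = 0.4). In Col-0, DPE2 had 95.3, 97.6 and 87.6 FPKM in wM leaves, against 76.8, 75.4 and 70.4 FPKM in wY leaves, and PHS1 had 128, 142 and 109 FPKM in wM leaves, against 175, 179 and 154 FPKM in wY leaves. Both genes thus stood lower in every dM and dY library than in any wM or wY library. Reads on a gene with a lesion show a transcript fragment, not a working product. GPT2 (AT1G61800), a plastidial glucose-6-phosphate translocator, rose in the mature leaves, with 339, 339 and 318 FPKM in dM leaves, against 169, 199.7 and 186 FPKM in dY leaves (0.84 ± 0.12).

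Among the genes that rose most in dM leaves were a protease that marks senescence, genes of sulfur limitation, an enzyme of pyrimidine recycling and several defence proteins. LSU1 (AT3G49580), a small protein induced by sulfur deficiency, stood at 118, 125 and 225 FPKM in dM leaves, against 3.50, 1.83 and 1.37 FPKM in dY leaves. Its lowest dM library was far above its highest dY library, and the change was 5.59 ± 0.22 (limma, adjusted p = 6.4e-15). PYD4 (AT3G08860), the aminotransferase that ends uracil breakdown, lies on chromosome 3, 2696199 to 2699420 of TAIR10 and had 252, 245 and 254 FPKM in dM leaves, against 5.21, 4.89 and 5.11 FPKM in dY leaves (5.37 ± 0.10). Its mean FPKM was 49.4 times as high in dM as in dY leaves, with little spread in either group. SAG12 (AT5G45890), the cysteine protease that is the classical marker of developmental leaf senescence, lies on chromosome 5, 18613239 to 18614963. It had 43.0, 45.8 and 40.4 FPKM in dM leaves, against 0.184, 0.426 and 0.263 FPKM in dY leaves (5.09 ± 0.10, limma, adjusted p = 6.9e-20), and it was listed at 0 in all wM and wY libraries.

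KTI1 (AT1G73260), a Kunitz trypsin inhibitor, had 343, 373 and 376 FPKM in dM leaves, against 13.9, 14.6 and 13.9 FPKM in dY leaves (4.59 ± 0.18). NIT2 (AT3G44300), a nitrilase, had 519, 580 and 606 FPKM in dM leaves, against 19.1, 25.1 and 24.3 FPKM in dY leaves (4.58 ± 0.14). DOX1 (AT3G01420), an α-dioxygenase that oxidises fatty acids, had 72.0, 82.2 and 63.6 FPKM in dM leaves, against 2.39, 2.36 and 1.80 FPKM in dY leaves (4.53 ± 0.13). The remaining rises among the 12 largest were CYP89A9 (4.14), a cytochrome P450 that acts on chlorophyll catabolites, HEL (4.14), the hevein-like protein PR4, OSM34 (4.1), an osmotin-like protein, PDF1.2C (4.1), a plant defensin, SDI1 (4.06), another gene of the sulfur-deficiency response, and CSLG2 (3.99), a cellulose synthase-like protein. The rule that chose these 12 genes required a deposited gene name and groups that do not overlap, so their values are a description. PDF1.2C shares reads with near-identical defensin copies, so its own level is uncertain. The plot of single libraries below shows SAG12 and LSU1 beside 10 genes of the groups described next.

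**Figure D1:**
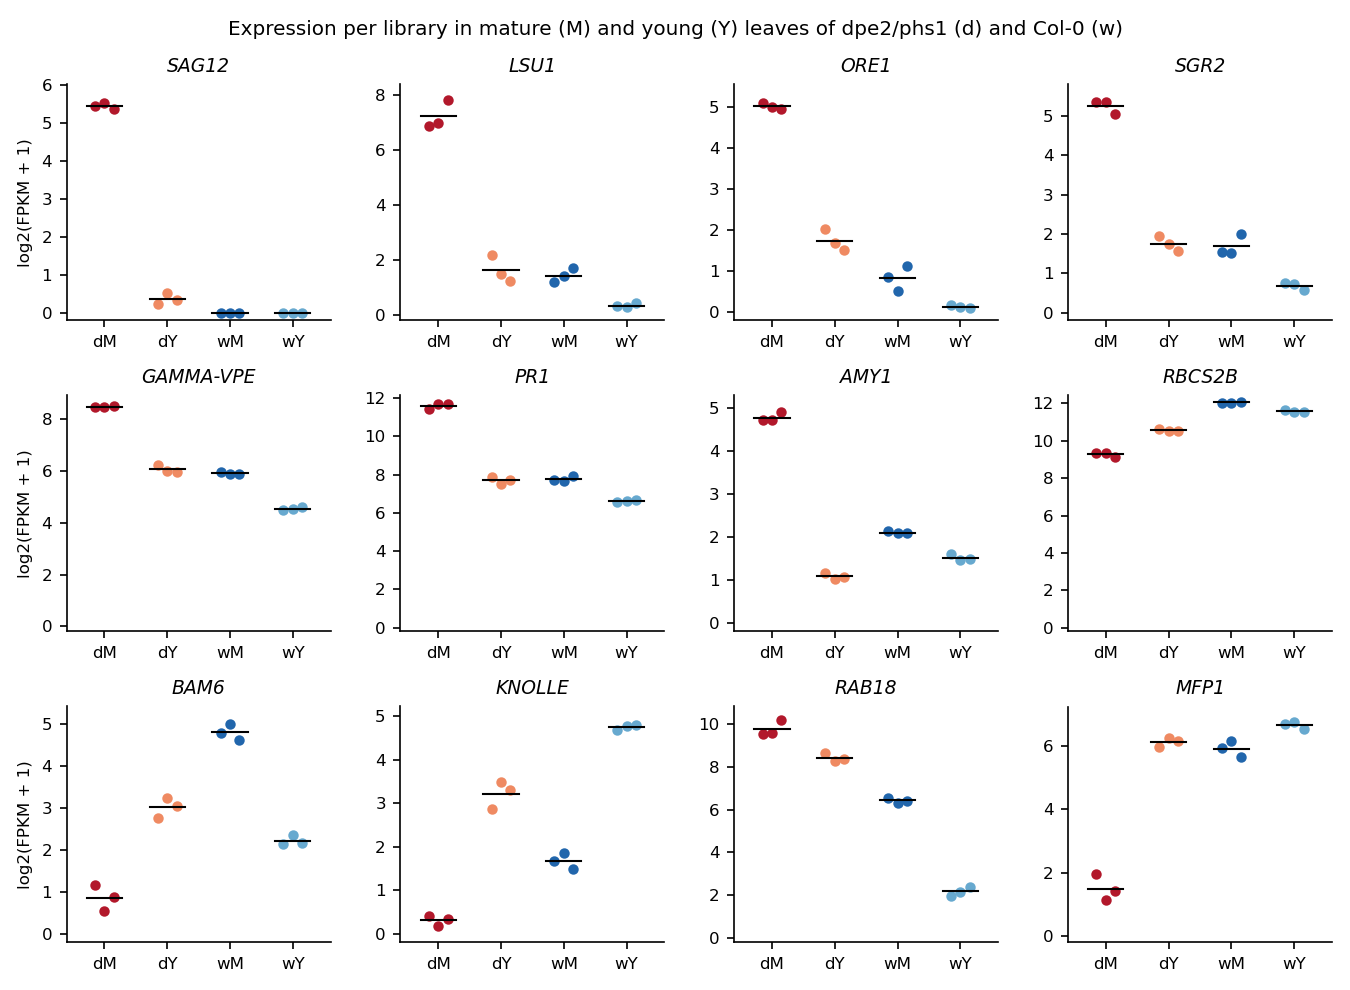
Expression per library of 12 genes, log2(FPKM + 1), in mature (dM) and young (dY) leaves of dpe2/phs1 and mature (wM) and young (wY) leaves of Col-0. Points are the 3 libraries of each group and black lines their means, and in each panel the dM points lie apart from the dY points, above them for SAG12, LSU1, ORE1, SGR2, GAMMA-VPE, PR1, AMY1 and RAB18 and below them for RBCS2B, BAM6, KNOLLE and MFP1.

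Genes of the senescence programme rose nearly throughout. Of 30 tested members 26 rose, 1 fell and 3 had no call, with a median of 2.04 against -0.16 over all genes. Among its 17 transcription factors 14 rose and none fell. The list does not separate factors that promote senescence from those that restrain it, so this is not a count of activators. ORE1 (3.27), the NAC factor at the head of age-dependent senescence, had 33.3, 31.2 and 29.9 FPKM in dM leaves, against 3.08, 2.22 and 1.87 FPKM in dY leaves. NAC055 (3.27), WRKY45 (3.17), WRKY75 (3.11) and NAP (2.18), further NAC and WRKY factors known to promote senescence, rose as well. WRKY53, an early regulator of the programme, rose least of the named factors: it had 12.1, 9.85 and 11.1 FPKM in dM leaves, against 6.39, 6.02 and 6.22 FPKM in dY leaves (0.73 ± 0.15, limma, adjusted p = 0.00015).

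The downstream markers followed. SAG13, a short-chain dehydrogenase, had 219, 246 and 239 FPKM in dM leaves, against 22.4, 17.2 and 19.2 FPKM in dY leaves (3.52 ± 0.10), and SAG21, a LEA-like protein, had 612, 701 and 816 FPKM in dM leaves, against 156, 105 and 108 FPKM in dY leaves (2.53 ± 0.16). SEN1, induced by darkness and senescence, rose by 2.03, and SWEET15, a sucrose exporter also known as SAG29, by 1.88. The single member that fell was SAG101 (-0.41), which besides its name has a known part in EDS1-dependent immunity, and its call was lost without dM replicate 3 (-0.29, limma, adjusted p = 0.092) or without dY replicate 3 (-0.35, limma, adjusted p = 0.056). In Col-0 the list rose too, 23 of 30 with 1 lower, but its median was 0.73. The test of the difference placed 18 members higher and 7 lower in dpe2/phs1. WRKY53 and SWEET15 were among the 7, with Col-0 changes of 1.62 and 2.82 (differences -0.89 ± 0.21 and -0.94 ± 0.27).

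Chlorophyll breakdown genes rose in dM leaves, 10 of 14 with 3 lower and a median of 1.21. SGR2, a Mg-dechelatase homologue of the stay-green family, had 39.7, 40.02 and 32.1 FPKM in dM leaves, against 2.83, 2.32 and 1.95 FPKM in dY leaves (3.51 ± 0.16). NYC1, a chlorophyll b reductase, had 66.9, 56.9 and 52.2 FPKM in dM leaves, against 7.06, 9.09 and 8.77 FPKM in dY leaves (2.68 ± 0.11). PAO, the oxygenase that opens the chlorophyll ring, had 156, 157 and 130.5 FPKM in dM leaves, against 29.3, 51.5 and 45.7 FPKM in dY leaves (1.82 ± 0.14), and in each of these 3 genes the lowest mature library lay above the highest young library. SGR1 rose by 1.01, PPH, the pheophytinase, by 1.41, and MES16, a methylesterase of the late steps, by 2.19. The fallers were NOL, a chlorophyll b reductase partner of NYC1, HCAR, which turns the chlorophyll b branch back to chlorophyll a, and SGRL. Under median-of-ratios scaling 10 members were higher and only 1 lower. In Col-0 only 3 members rose and 1 fell (median 0.12), and 10 of 14 differed upwards in dpe2/phs1 by the test of the difference, with 3 downwards.

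Proteolysis and recycling genes moved with them. Of 13 vacuolar proteases 11 rose and 1 fell (median 0.92). GAMMA-VPE, the vacuolar processing enzyme that matures other proteases, had 354, 353 and 366 FPKM in dM leaves, against 73.7, 62.9 and 61.6 FPKM in dY leaves (2.42 ± 0.09). ALPHA-VPE rose by 2.11 and RD19A, a papain-like cysteine protease, by 1.59. The lower member, CATHB1, a cathepsin B-like protease, overlapped between the groups (-0.42 ± 0.18, limma, adjusted p = 0.044), and its call was lost without any 1 of the dM replicates or without dY replicate 1 (-0.08, limma, adjusted p = 0.57).

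Among autophagy genes, all 9 tested ATG8 genes, whose products coat the autophagosome, rose (median 0.77), as did all 3 cargo receptors, with NBR1 at 358, 368 and 382 FPKM in dM leaves, against 123, 153 and 135 FPKM in dY leaves (1.43 ± 0.09). Of the 25 genes of the core machinery 4 rose and 4 fell (16% each, against 26.5% and 41.2% of all genes). This count rested on the scaling, with 11 higher and 4 lower under median-of-ratios scaling and 9 higher and 5 lower with the length trend removed. ATG2, a large lipid-transfer protein of the growing autophagosome, fell (-1.21 ± 0.24, limma, adjusted p = 0.00012), but its change was 0.030 once the dependence on gene length had been removed (adjusted p = 0.8). Taken as a whole, the list had 16 higher and 4 lower of 37, with a median of 0.17.

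Nitrogen remobilization genes rose in 9 of 13 cases and fell in 2 (median 0.99). GLN1-1, a cytosolic glutamine synthetase, had 187, 221 and 188 FPKM in dM leaves, against 41.9, 51.9 and 52.7 FPKM in dY leaves (2.00 ± 0.11). In Col-0 it moved the other way (-0.36), and the difference was 2.37 ± 0.16 (limma, adjusted p = 1.8e-10). LHT1, an amino acid transporter, rose by 2.26 and NRT1.7, which loads nitrate into the phloem, by 1.79. The 2 that fell, GLN2 (-0.54) and GLU1 (-1.69), encode the chloroplast enzymes that assimilate ammonium. Of 25 genes of the low-energy response 9 rose (36%) and 4 fell (16%), against 26.5% and 41.2% of all genes (median 0.14). At the top were DIN2, a β-glucosidase (2.94), BCAT2, which acts on branched-chain amino acids (2.71), and DIN10, a raffinose synthase family member (2.23). The count of the low-energy list rested on the scaling, with 14 higher and 1 lower under median-of-ratios scaling, and 2 were lower without dM replicate 2.

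**Figure D2:**
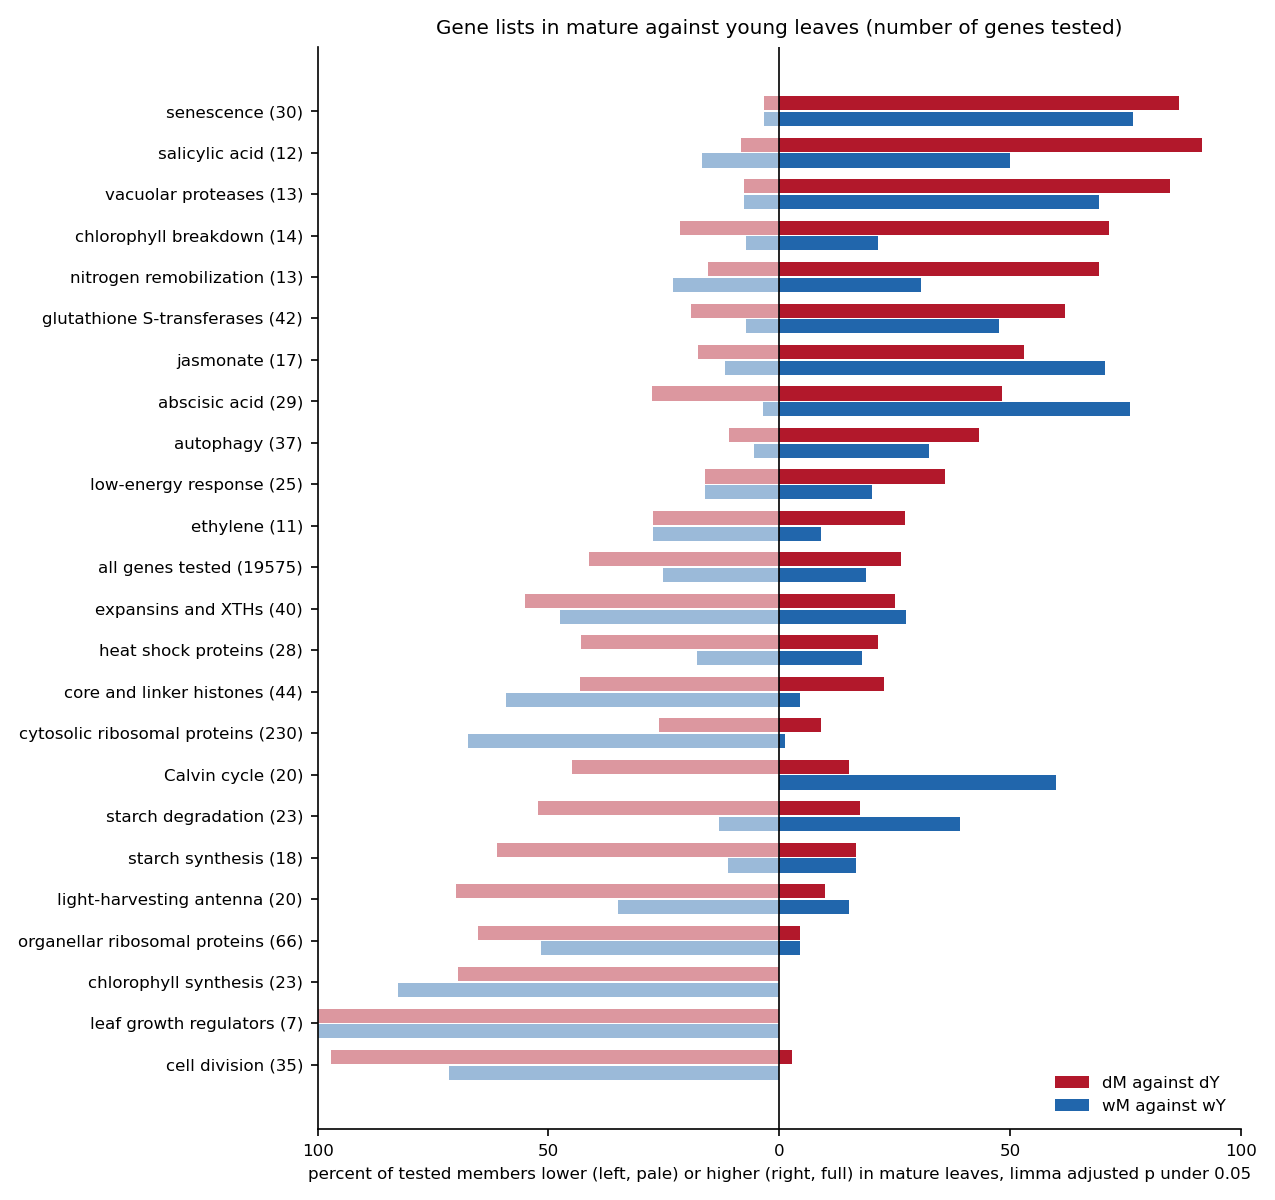
Percent of the tested members of each gene list that were higher (right, full colour) or lower (left, pale) in mature leaves at a limma adjusted p under 0.05, for dM against dY in red and wM against wY in blue. Senescence and vacuolar protease genes lie mostly to the right and cell division genes to the left in both genotypes. Salicylic acid genes lie mostly to the right in dpe2/phs1, whereas in Col-0 6 of 12 were higher and 2 lower. The Calvin cycle has 9 lower and 3 higher of 20 in dpe2/phs1, near the share of all genes, and 12 higher and 0 lower in Col-0.

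Many photosynthesis genes fell in dM leaves, by less than the senescence genes rose. Chlorophyll synthesis had 16 lower and 0 higher of 23 (median -0.52), led by DVR, the divinyl reductase (-2.30 ± 0.11), and PORC, a protochlorophyllide oxidoreductase (-1.13 ± 0.17). Col-0 had 19 lower and 0 higher (median -0.58), and by the test of the difference 8 members were higher and 4 lower in dpe2/phs1. With median-of-ratios scaling the dM count became 10 lower and 3 higher, and without dY replicate 2, 1 member was higher. Antenna proteins had 14 lower and 2 higher of 20 (median -0.37), a count that was 4 lower and 2 higher under median-of-ratios scaling and 6, 7 and 9 lower without dM replicate 1, dM replicate 2 and dY replicate 1. It went the other way, to 18 lower and 0 higher, with the length trend removed (median -0.56). With length and purine trends removed it was also 18 and 0 (median -0.64). Of the antenna genes 2 were higher (10%) and 5 lower (25%) in dpe2/phs1 by the test of the difference. These shares were no larger than the 20.8% and 27.9% over all genes. Among those that fell were LHCB2.4 (-2.25) and LHCB1.4 (-0.91), and LHCB1.4 rose in Col-0 (1.24).

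The Calvin cycle differed between the genotypes, mainly through its rise in Col-0. In dM leaves 9 of 20 members fell (45%, against 41.2% of all genes) and 3 rose, with a median of -0.19 against -0.16 over all genes, and in wM leaves 12 rose and none fell (median 0.34). Of the 20, 11 were lower and 0 higher in dpe2/phs1 by the test of the difference. Under median-of-ratios scaling the dM count was 5 lower and 6 higher. RBCS2B, a small subunit of Rubisco, had 653, 648 and 561 FPKM in dM leaves, against 1600, 1463 and 1454 FPKM in dY leaves. In Col-0 it had 4203, 4203 and 4306 FPKM in wM leaves, against 3207, 2952 and 2968 FPKM in wY leaves, so the change was -1.28 ± 0.09 in dpe2/phs1 and 0.48 in Col-0. RBCS1A, the most abundant small subunit gene, changed by -0.48 ± 0.12 (limma, adjusted p = 0.0017), a call that was lost under median-of-ratios scaling (-0.21) and under quantile scaling (0.00). SBPase, which regenerates the CO2 acceptor, fell (-0.76), whereas FBA1, a plastidial aldolase (0.67), and CP12-1, a regulator of the cycle (0.72), rose. LHCB and RBCS copies share reads, so the values of single members are uncertain.

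In starch degradation AMY1 and BAM1 rose strongly while several other members fell. The list had 4 higher and 12 lower of 23 (52.2% lower, against 41.2% of all genes, median -0.37). Under median-of-ratios scaling 8 were lower (34.8%, against 31.8% of all genes, median -0.12). In Col-0 9 were higher and 3 lower (median 0.24), and 11 members were lower and 3 higher in dpe2/phs1 by the test of the difference. AMY1, an α-amylase that acts outside the chloroplast and is known from senescent leaves, had 25.2, 25.2 and 28.7 FPKM in dM leaves, against 1.23, 1.04 and 1.1 FPKM in dY leaves (3.69 ± 0.11). BAM1, a plastidial β-amylase, had 145, 141 and 147 FPKM in dM leaves, against 25.9, 37.0 and 36.1 FPKM in dY leaves (2.11 ± 0.12). These 2 genes rose in every dM library beyond the highest dY library.

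BAM3, the main β-amylase of leaf starch breakdown at night, went down in dpe2/phs1 and up in Col-0. It had 156, 125 and 150.5 FPKM in dM leaves, against 252, 257 and 252 FPKM in dY leaves (-0.82 ± 0.20), and its Col-0 change was 1.46 (difference -2.28 ± 0.29, limma, adjusted p = 1.6e-06). BAM6 showed the widest split, with 1.24, 0.467 and 0.846 FPKM in dM leaves, against 5.80, 8.33 and 7.29 FPKM in dY leaves (-2.15 ± 0.24) and 26.5, 30.7 and 23.3 FPKM in wM leaves, against 3.44, 4.07 and 3.51 FPKM in wY leaves (2.57). GWD1, the glucan, water dikinase that starts starch breakdown by phosphorylation, had 90.2, 59.0 and 67.4 FPKM in dM leaves, against 192, 262 and 235 FPKM in dY leaves (-1.67 ± 0.26). GWD1 and BAM3 stood nearer to 0 once length and purine trends had been removed (-0.28 and -0.24), and PHS1, whose own fall was given above, had no call there (-0.06).

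Starch synthesis genes fell in 11 of 18 cases and rose in 3 (median -0.54), whereas Col-0 had 3 higher and 2 lower. Without dM replicate 1, dM replicate 2 or dY replicate 1, 1 gene rose in dM in place of 3. SS4, the starch synthase of granule initiation, had 9.39, 5.27 and 5.73 FPKM in dM leaves, against 42.2, 65.8 and 59.2 FPKM in dY leaves (-2.88 ± 0.28). SS3 (-1.91) and APL1 (-1.21), a large subunit of ADP-glucose pyrophosphorylase, fell as well. ISA1, the debranching enzyme, rose by 0.79. The deepest fall was that of MFP1, a thylakoid-bound coiled-coil protein that takes part in granule initiation, and it is described with the largest falls.

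**Figure D3:**
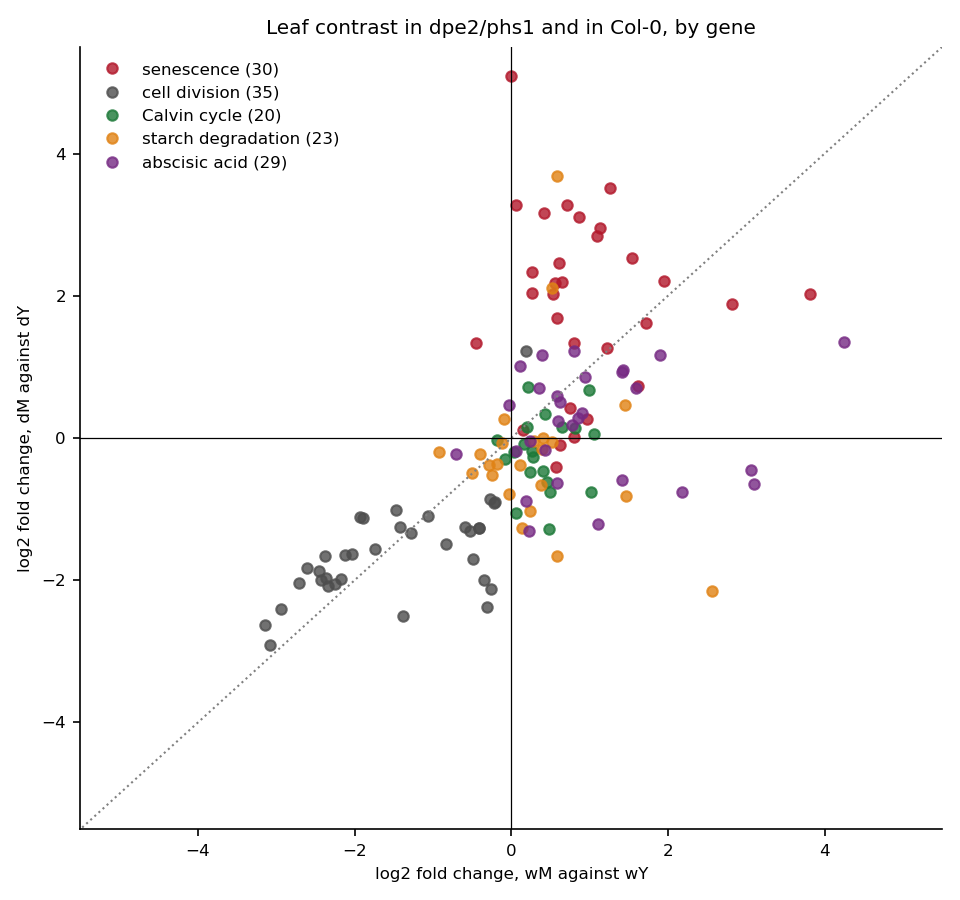
Log2 fold change of single genes in dM against dY (vertical) and in wM against wY (horizontal) for 5 gene lists, with equal change on the dotted line. Senescence genes lie mostly above zero in both contrasts (26 and 23 of 30 higher), cell division genes below zero in both (34 and 25 of 35 lower), and many Calvin cycle and starch degradation genes lie to the lower right, that is higher in wM and lower in dM.

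Cell division genes fell nearly throughout. Of 35 tested members 34 fell and 1 rose (median -1.64), and in Col-0 25 fell and none rose (median -1.47). KNOLLE, the syntaxin of the cell plate, had 0.334, 0.124 and 0.261 FPKM in dM leaves, against 6.29, 10.2 and 8.92 FPKM in dY leaves (-2.92 ± 0.24), and the Col-0 change was -3.08 (difference 0.16 ± 0.34, limma, adjusted p = 0.72). CYCB1-2, a mitotic cyclin, also fell (-2.62). All 18 mitosis genes fell in both genotypes, and 7 of them fell less in dpe2/phs1 by the test of the difference. All 12 replication genes fell in dM leaves, against 3 in wM leaves, and 11 of them differed downwards. MCM3, a subunit of the replicative helicase, changed by -2.13 (difference -1.87 ± 0.31). The only member that rose was CYCD2-1, a G1 cyclin, with 43.8, 46.2 and 42.1 FPKM in dM leaves, against 18.3, 18.2 and 18.5 FPKM in dY leaves (1.22 ± 0.10).

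The 150 bases upstream of KNOLLE and CYCB1-2 are shown because mitotic genes of plants often carry the MSA motif, whose core AACGG, which reads CCGTT on the other strand, binds MYB factors of the cell cycle. The sequences are from RefSeq, TAIR10.1, each 5′ to 3′ on the gene's strand up to its start, with matches to the core on either strand in capitals.
KNOLLE, chr1:2711001-2711150, minus strand: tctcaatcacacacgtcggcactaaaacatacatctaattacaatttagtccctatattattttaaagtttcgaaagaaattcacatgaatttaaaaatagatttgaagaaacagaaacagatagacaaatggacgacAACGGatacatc
CYCB1-2, chr5:1861704-1861853, minus strand: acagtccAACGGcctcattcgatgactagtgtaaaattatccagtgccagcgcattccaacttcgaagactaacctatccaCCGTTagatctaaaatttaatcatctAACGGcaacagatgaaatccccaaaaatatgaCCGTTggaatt
In promoters of 250 bases before to 50 after the start, the core stood in 18 of 35 cell division genes (51.4%), in 29.4% of genes that fell more than 2-fold and in 26.2% of all 19457 promoters. The E2F-type motif TTTCCCGC stood in 4 of the 35 (11.4%) against 0.807% of all promoters. The W-box core TTGAC, searched on both strands like the others, stood in 21 of 30 senescence genes (70%), in 57.2% of genes that rose more than 2-fold and in 50.4% of all promoters. It stood in 8 of 12 salicylic acid genes (66.7%) but in only 4 of 14 chlorophyll breakdown genes (28.6%). The 150 bases upstream of SAG12 held 0 matches to it, and those of SAG13 held 1. A match is a description of the letters, not of binding.

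Growth regulators fell as a group, all 7 in both genotypes (median -1.95 in dpe2/phs1). GRF4, a growth-regulating factor, changed by -2.2 and ANT, which keeps organ cells dividing, by -2.65. Expansins and xyloglucan endotransglucosylases, enzymes that loosen the growing cell wall, were mixed: 10 rose and 22 fell of 40 (median -0.34), between XTH24 (3.21) and XTH9 (-3.17). Plastid and mitochondrial ribosomal protein genes fell in 43 of 66 cases and rose in 3 (median -0.50), with 30 lower and 9 higher under median-of-ratios scaling (median -0.24) and 5, 6 and 1 higher without dM replicate 1, dY replicate 1 and dY replicate 2.

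Fewer genes of the cytosolic ribosome fell in dpe2/phs1 than in Col-0. Of 230 tested, 60 fell and 21 rose in dM leaves (median -0.08), against 155 lower and 3 higher in wM leaves (median -0.52), and 92 were higher and 7 lower in dpe2/phs1 by the test of the difference. The direction in dpe2/phs1 rested on the scaling, with 61 higher and 29 lower under median-of-ratios scaling, 11 higher and 128 lower with the length trend removed, and 38 lower without dY replicate 1. Histone genes, whose copies share reads, had 10 higher (22.7%) and 19 lower (43.2%) of 44, near the shares of 26.5% and 41.2% over all genes. Under median-of-ratios scaling 16 were higher (36.4%) and 15 lower (34.1%), again near the shares over all genes (36.4% and 31.8%).

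Among the hormone and stress lists, salicylic acid genes rose most uniformly, 11 of 12 with 1 lower (median 1.1), against 6 higher and 2 lower in Col-0 (median 0.25). PR1, the marker of systemic acquired resistance, had 2769, 3254 and 3274 FPKM in dM leaves, against 229.6, 182 and 210.2 FPKM in dY leaves (3.90 ± 0.12). The lowest dM library stood more than 10 times above the highest dY library. PR5 rose by 1.91 and PBS3, an enzyme of salicylic acid synthesis, by 1.3. EDS1, a lipase-like regulator of immunity, was the member that fell (-1.76 ± 0.17).

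Jasmonate genes were mixed, with 9 higher and 3 lower of 17 (median 0.22), and Col-0 had 12 higher and 2 lower (median 0.93). AOS, allene oxide synthase, rose by 1.58 and the defensin PDF1.2 by 3.37. VSP1, a vegetative storage protein, fell, with 83.4, 84.6 and 72.5 FPKM in dM leaves, against 374, 385 and 384 FPKM in dY leaves (-2.24 ± 0.10), as did its neighbour VSP2 (-1.80). None of the 17 was higher and 9 were lower in dpe2/phs1 by the test of the difference.

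Abscisic acid genes had 14 higher (48.3%) and 8 lower (27.6%) of 29 in dM leaves (median 0.28), against 26.5% and 41.2% over all genes. In wM leaves 22 were higher and 1 lower (median 0.77), and 16 were lower and 4 higher in dpe2/phs1 by the test of the difference. RAB18, a dehydrin induced by abscisic acid, had 745, 768 and 1179 FPKM in dM leaves, against 395, 307 and 330.4 FPKM in dY leaves (1.36 ± 0.15). In Col-0 it had 93.2, 79.2 and 84.2 FPKM in wM leaves, against 2.94, 3.50 and 4.26 FPKM in wY leaves (4.25), so both dpe2/phs1 groups lay above both Col-0 groups. COR15A, a cold-induced chloroplast protein, fell in dpe2/phs1 (-0.59) and rose in Col-0 (1.42), and so did ABF3, a bZIP factor of the hormone response (-1.20 and 1.11).

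The ethylene list was small and divided, 3 higher and 3 lower of 11, or 27.3% each, against 26.5% and 41.2% over all genes. ACS2, an enzyme of ethylene synthesis, had 7.43, 9.14 and 7.09 FPKM in dM leaves, against 0.387, 0.710 and 0.998 FPKM in dY leaves (2.4 ± 0.14). Glutathione S-transferases, which detoxify reactive compounds, rose in 26 of 42 cases and fell in 8 (median 0.90), against 20 and 3 in Col-0 (median 0.30). GSTF7, also induced by salicylic acid, rose by 2.96. Heat shock proteins had 6 higher (21.4%) and 12 lower (42.9%) of 28, near the shares of 26.5% and 41.2% over all genes.

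The genes with a deposited name that fell most in dM leaves were of another kind, many of them long genes of coiled-coil, cytoskeletal and nuclear-envelope proteins. Genes listed by locus number alone were not ranked, among them AT1G06360, which fell by -3.88 in dpe2/phs1 and by -4.07 in Col-0. MFP1 had 2.85, 1.18 and 1.67 FPKM in dM leaves, against 62.2, 75.3 and 70.3 FPKM in dY leaves and lies on chromosome 3, 5430758 to 5433851 (AT3G16000, -4.63 ± 0.28, limma, adjusted p = 3.9e-12). FPP4 (AT1G19835), a filament-like plant protein, had 1.09, 0.583 and 0.733 FPKM in dM leaves, against 27.2, 36.8 and 33.5 FPKM in dY leaves (-4.21 ± 0.26). CRWN3 (AT1G68790), a lamina-like protein of the plant nucleus, had 0.436, 0.162 and 0.0931 FPKM in dM leaves, against 16.2, 17.3 and 16.3 FPKM in dY leaves (-3.85 ± 0.30). The dY means were 36.5, 40.5 and 72.0 times the dM means of these 3 genes, in the same order.

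CIP1 (AT5G41790), a coiled-coil protein that binds the light-signalling ligase COP1, had 0.622, 0.330 and 0.433 FPKM in dM leaves, against 18.2, 19.9 and 20.8 FPKM in dY leaves (-3.82 ± 0.36), whereas in Col-0 it rose (0.99). GER3 (AT5G20630), a germin-like protein of the cell wall, had 51.0, 49.2 and 47.8 FPKM in dM leaves, against 595, 758 and 740.4 FPKM in dY leaves (-3.79 ± 0.14). The other genes among the 12 largest falls were TSA1 (-4.09), a protein of endoplasmic reticulum bodies, KIN4B (-3.87) and KIN7G (-3.63), both kinesins, HMGB6 (-3.85), an HMG-box protein, FPP1 (-3.77), and NET4B (-3.65) and NET1D (-3.62), which bind actin. Picked by description after these falls had been seen, coiled-coil and motor protein genes had 103 lower and 4 higher of 120 (median -1.77), against 60 lower and 4 higher in Col-0 (median -0.53), and by the test of the difference 69 were lower and 10 higher in dpe2/phs1. With length and purine trends removed 85 were lower and 11 higher in dM (median -0.75), and the difference had 50 lower and 36 higher.

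Transcripts of the 12 largest falls among genes with a deposited name were rich in purines (A and G). The 12 had a median purine content of 57.6% and 10 of them were in the highest of 10 equal bins of the 18549 transcripts compared, whereas the 12 largest rises had a median of 50.6% with 2 in that bin. Their median transcript length was 3117 bases, against 1260 bases for the rises. The stretches below are shown for that reason: each is the most purine-rich window of 120 bases within 1 coding exon, from RefSeq, TAIR10.1, 5′ to 3′ on the coding strand, with purines in capitals. PYD4, which rose, is given for comparison.
MFP1, chr3:5432620-5432739, minus strand: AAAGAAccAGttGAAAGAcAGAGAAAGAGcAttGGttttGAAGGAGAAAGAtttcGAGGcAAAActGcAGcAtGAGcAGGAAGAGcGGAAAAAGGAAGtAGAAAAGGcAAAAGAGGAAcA
FPP4, chr1:6858491-6858610, minus strand: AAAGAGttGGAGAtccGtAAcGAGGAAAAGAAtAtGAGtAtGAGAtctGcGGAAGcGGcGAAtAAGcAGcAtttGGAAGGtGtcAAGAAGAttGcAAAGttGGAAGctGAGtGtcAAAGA
CRWN3, chr1:25834975-25835094, minus strand: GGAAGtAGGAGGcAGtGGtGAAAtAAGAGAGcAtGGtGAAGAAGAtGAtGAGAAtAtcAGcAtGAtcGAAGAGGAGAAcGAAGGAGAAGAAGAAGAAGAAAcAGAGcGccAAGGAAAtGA
CIP1, chr5:16732118-16732237, plus strand: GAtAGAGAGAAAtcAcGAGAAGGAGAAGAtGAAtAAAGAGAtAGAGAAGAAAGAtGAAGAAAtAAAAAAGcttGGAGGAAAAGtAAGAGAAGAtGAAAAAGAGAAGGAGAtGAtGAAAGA
PYD4, chr3:2698624-2698743, minus strand: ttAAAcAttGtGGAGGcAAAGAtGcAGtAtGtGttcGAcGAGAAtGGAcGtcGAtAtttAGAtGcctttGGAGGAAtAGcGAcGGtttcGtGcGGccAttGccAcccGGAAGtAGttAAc
Purines made up 77.5% of the MFP1 window, 70.0% in FPP4, 80.8% in CRWN3, 86.7% in CIP1 and 56.7% in PYD4. Over the whole transcripts they made up 58.5%, 54.7%, 63.3%, 62.7% and 50.8% in the same order. SAG12 and KTI1, which also rose and are not shown, had 68.3% and 60.8% in their most purine-rich windows. The SAG12 window was thus near that of FPP4, which fell. Their whole transcripts had 52.8% and 49.6%.

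Across all genes the change also went with purine content. In the bin with the lowest purine content (up to 46.96%) the median change was 0.07, and in the highest bin (above 54.73%) it was -0.84, with 225 genes higher (12.1%) and 1267 lower (68.3%). In Col-0 the same bins had medians of -0.06 and -0.17. Longer transcripts also fell further: the median was 0.03 in the shortest of 10 bins (up to 870 bases) and -0.90 in the longest (from 3025 bases). Within transcripts of 1500 to 2500 bases the lowest and highest purine bins still had medians of 0.08 (n = 612) and -0.90 (n = 642). With 5 bins for each property, the longest transcripts with the lowest purine content stood at -0.04 (n = 334), and the longest with the highest at -1.40 (n = 947, 821 lower and 32 higher). As a description across 18549 genes, which are not independent replicates, Spearman's rho with the change was -0.27 for purine content, -0.26 for length and 0.06 for GC content, against -0.04 for purine content and -0.04 for length in Col-0.

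**Figure D4:**
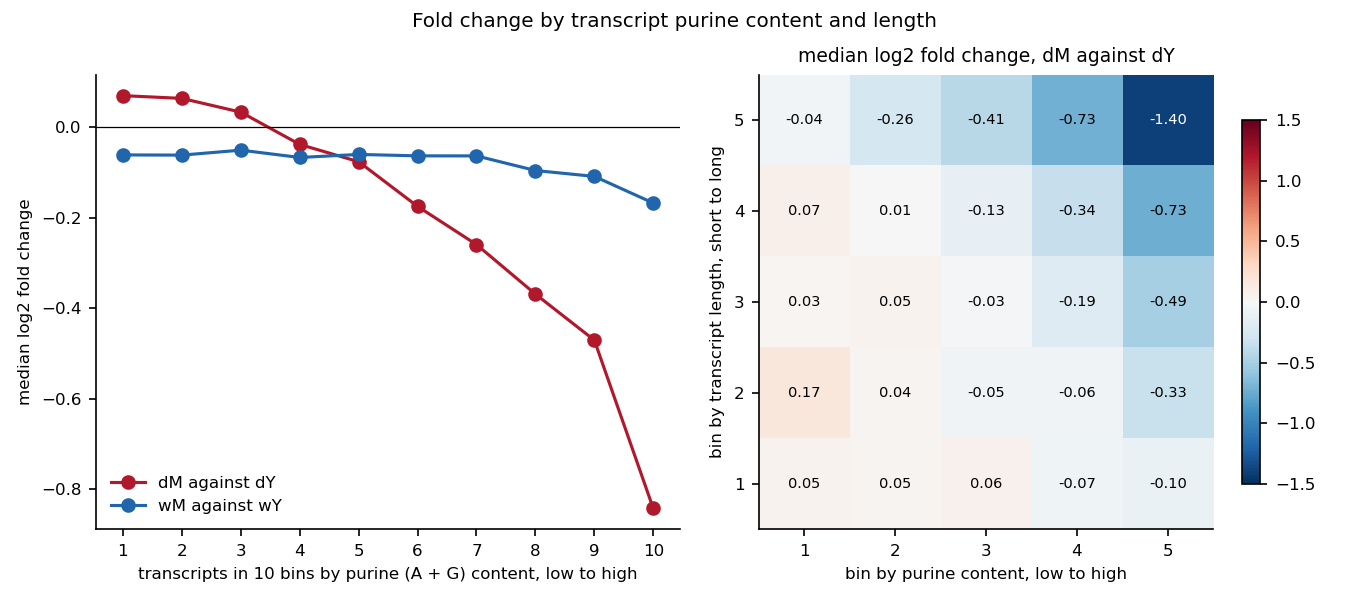
Left, median log2 fold change in each of 10 bins of transcripts by purine content, for dM against dY (red) and wM against wY (blue). Right, median log2 fold change of dM against dY in 5 bins each of transcript length and purine content, where the longest and most purine-rich transcripts stand at -1.40 and the longest with the fewest purines at -0.04.

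The trend could be followed in single libraries, each gene set against its mean over the 24 libraries. The level of the highest of the 10 purine bins less that of the lowest was -0.50, -0.65 and -0.57 on the log2 scale in the dM libraries, against 0.47, 0.40 and 0.43 in the dY libraries. It was 0.25, 0.26 and 0.07 in the wM libraries and 0.31, 0.37 and 0.30 in the wY libraries. The whole shoots of Col-0 at the Recovery Period, 7 weeks after germination, had values of -0.65 to -1.24, so the negative sign was not particular to dM. Whether this trend arose in the leaf or in RNA or library preparation was not tested. With length and purine trends removed, an alternative added after the largest falls had been seen, 4590 genes were higher and 8691 lower of 18549. MFP1 then changed by -3.22, FPP4 by -3.13, CRWN3 by -1.46 and CIP1 by -1.23.

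**Figure D5:**
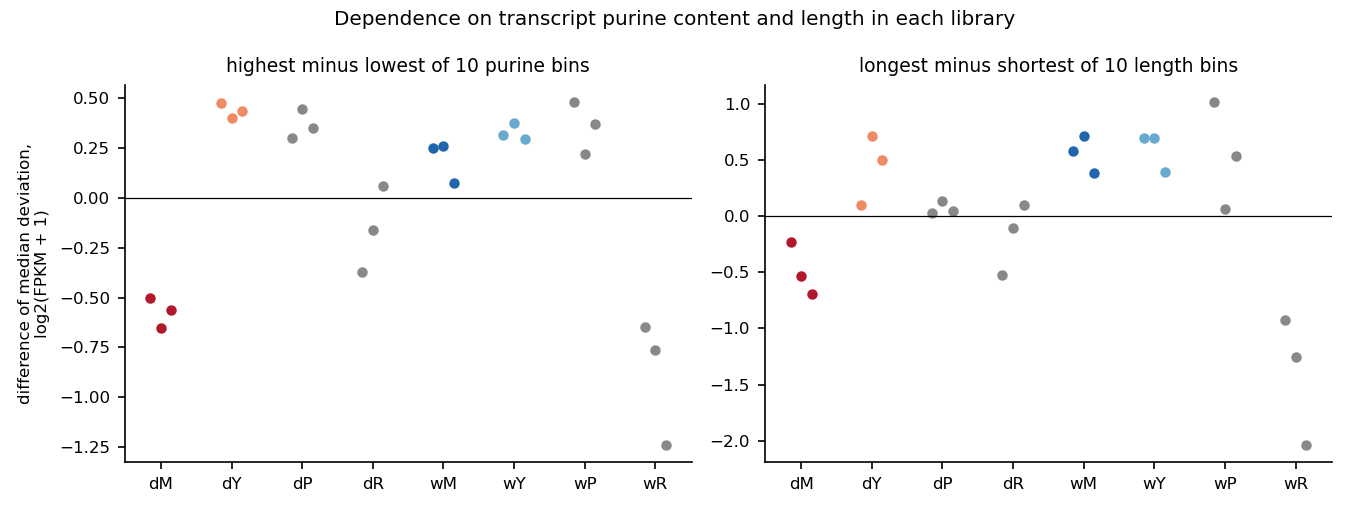
Level of the highest less the lowest of 10 bins of transcripts by purine content, and of the longest less the shortest of 10 bins by length, in each of the 24 libraries (log2). The groups dP, wP, dR and wR are whole shoots at 3 (P) and 7 (R) weeks. The dM libraries lie below zero (-0.50, -0.65 and -0.57 for purine content) and the dY libraries above it, and the Col-0 Recovery libraries also lie below zero (-0.65 to -1.24).

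Markers of guard cells, the stomatal lineage, xylem, epidermis and phloem were lower in dM leaves, with exceptions named here, while those of the shoot meristem had no call and flower markers were higher at a low level. The summed FPKM of 3 guard cell markers was 6.77 to 8.79 in dM and 18.6 to 19.1 in dY libraries, with 3 of 3 lower, and that of 5 stomatal lineage markers was 3.45 to 4.11 in dM and 17.3 to 21.1 in dY, with 5 of 5 lower. SPCH, which starts the stomatal lineage, had 0.292, 0.130 and 0.176 FPKM in dM leaves, against 3.31, 3.28 and 3.09 FPKM in dY leaves. Xylem markers summed to 3.71 to 4.45 in dM and 11.9 to 15.5 in dY (3 of 3 tested lower), and epidermis markers to 83.7 to 95.1 in dM and 165.5 to 207 in dY (2 of 3 lower). PDF1, an epidermal protein, had 10.7, 9.76 and 8.51 FPKM in dM leaves, against 76.2, 81.2 and 83.2 FPKM in dY leaves. Phloem markers summed to 105.9 to 116.9 in dM and 132.1 to 185.6 in dY (2 of 3 lower, no call for SUC2). Trichome markers summed to 4.48 to 5.05 in dM and 6.53 to 7.02 in dY, with 1 of 3 lower and GL1 listed at 0 in every dM library, but 2 were higher and 1 lower once length and purine trends had been removed. Flower markers, of which none reached the level for testing, summed to 1.06 to 1.57 in dM and 0.12 to 0.30 in dY, without overlap. In Col-0 the stomatal lineage sum was 1.4 to 2.18 in wM and 46.3 to 50.7 in wY. All 5 fell in both genotypes, less far in dpe2/phs1 by the test of the difference. Xylem markers in Col-0 summed to 6.51 to 10.7 and 55.1 to 58.6. Trichome markers there stood at 0.83 to 0.95 and 9.81 to 11, and epidermis markers at 90.7 to 103 and 275 to 291. Guard cell markers stood at 20.65 to 26 and 29.8 to 36.8, and phloem markers, with no call, at 123.7 to 130.5 and 108.6 to 118.4.

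Mesophyll markers, the check on the labelled tissue, were abundant in both groups, 16220 to 18140 in dM and 22450 to 24270 in dY, and all 3 fell, but 1 of 3 under median-of-ratios scaling. CA1, the chloroplast carbonic anhydrase, had 155, 166 and 156 FPKM in dM leaves, against 592, 729 and 757 FPKM in dY leaves (-2.11 ± 0.11), whereas in Col-0 it was higher in mature leaves (0.45). Shoot meristem markers were low, 3.28 to 3.86 in dM and 3.09 to 3.48 in dY, with no call for the 2 that were tested. They were lower still in Col-0, at 0 in every wM library and 0.35 to 0.55 in wY, so the genotypes differed in these markers. What part the mix of cell types had in the falls of cell division, growth and wall genes was not tested.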

How the data were processed

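RNA from leaves with petioles was extracted with TRIzol, made into NEBNext libraries and sequenced on an Illumina NovaSeq. The submitters' processing notes name CASAVA, HISAT2, featureCounts and TAIR10. The authors deposited a table of FPKM values per gene and library, with gene names, positions and a deposited gene length in bases as another column. No count table was used here. Nonzero FPKM values were whole multiples of 1 read for 55.0% of values with the listed lengths and 100.0% with lengths fitted to the steps (tolerance 0.001 reads), which gave the total reads per library.

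Values were taken as log2(FPKM + 1), with a pseudocount of 1, for 19575 genes of at least 1 FPKM on average in at least 1 group. One limma fit (limma 3.58.1, R 4.3.3) of all 8 groups of 3 libraries shared the estimate of the spread. It gave dM against dY, wM against wY and their difference, with Benjamini-Hochberg adjustment over all genes at 0.05. The fit was run on simulated data in which few genes changed, equally up and down, without a length or purine trend. That setting is unlike these data, so the run does not show how well the fit performs here. This fit of deposited values replaces the count model of the study's methods.

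The genes named by rule were the 12 largest rises and 12 largest falls with a deposited name, an adjusted p under 0.05, groups that did not overlap and a mean of at least 10 FPKM in the higher group, the 2 largest rises and falls in each list, DPE2, PHS1, GPT2 and a set of senescence genes. Other genes named in the text (among them SWEET15, NYC1, NAC055, BAM3, MCM3, and those of the closing section) were chosen after their values were seen. The lists and members were chosen with earlier results of these data known. Symbols of 5 list genes did not pair with their loci and were left out. Sequences, transcript lengths and base contents came from RefSeq, TAIR10.1, which matched 32548 genes with 99.95% at the same start and end. Per-sample columns left unused numbered 0. No batch was given in the labels. Tables were handled with Python 3.11.15, pandas 2.3.3 and matplotlib 3.10.9.

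The alternatives tried were quantile, TPM and median-of-ratios scaling, a smaller pseudocount (0.1), a stricter filter (5 FPKM) or none at all, limma-voom on the recovered reads, the compared groups alone, the replicate number as a block, removal of the length trend by loess (span 0.3) and each replicate left out. Removal of both length and purine trends was added after the largest falls had been seen.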

Additional observations from a re-analysis of the deposited data

Results flagged for a closer look

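A set of 68 of the genes described, which is not all of them, was read here. For 59 of the 68 the leaf contrast differed between the genotypes by limma's interaction test at an adjusted p under 0.05. That test called 48.8% of all genes, and the genes described were chosen for their dM/dY change or after their values were seen, so the count is a description. The values below are log2 differences, dM against dY less wM against wY, so a positive value means that the gene moved further up, or less far down, with leaf age in dpe2/phs1. Groups of 3 libraries are too small for a test of single libraries that stand apart, and none was made.

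Among the largest rises the difference was 5.09 for SAG12, 4.5 for LSU1, 4.35 for NIT2, 3.93 for OSM34, 3.80 for SDI1, 3.57 for KTI1, 3.55 for PYD4, 3.38 for CYP89A9 and 0.79 for HEL. SAG12 was listed at 0 in every wM and wY library, so its difference is the change in dpe2/phs1 alone. In the senescence list it was 3.21 for NAC055, 2.57 for ORE1, 2.27 for SAG13, 1.62 for NAP, 1.49 for SEN1 and 0.99 for SAG21, and of the other sign for WRKY53 (-0.89) and SWEET15 (-0.94). Chlorophyll breakdown genes stood at 2.51 (SGR2), 2.49 (NYC1), 1.53 (PAO) and 0.67 (SGR1).

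In recycling, the differences were 2.82 for DIN2, 2.37 for GLN1-1, 1.74 for BCAT2, 1.06 for GAMMA-VPE, 0.97 for NBR1, 0.90 for LHT1 and -1.65 for ATG2. For the photosynthesis genes of the set that passed they were -2.15 for LHCB1.4, -2.14 for LHCB2.4, -1.76 for RBCS2B, -1.46 for DVR, -1.07 for PORC and -0.72 for RBCS1A. Of all 23 chlorophyll synthesis genes, however, 8 differed upwards and 4 downwards.

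Starch genes went both ways, with AMY1 at 3.11, BAM1 at 1.59 and ISA1 at 0.85, against BAM6 at -4.72, SS4 at -3.14, BAM3 at -2.28, GWD1 at -2.26 and PHS1 at -0.76. Among growth genes XTH24 stood at 1.63, CYCD2-1 at 1.03, GRF4 at 0.66 and MCM3 at -1.87. Hormone and defence genes stood at 2.76 (PR1), 2.29 (ACS2), 2.01 (GSTF7), -1.42 (EDS1), -2.23 (VSP1), -2.31 (ABF3) and -2.89 (RAB18).

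Among the largest falls in the set the differences were -4.81 for CIP1, -3.99 for FPP4, -3.88 for MFP1, -3.60 for CRWN3, -3.19 for KIN4B and -0.88 for GER3. Genes outside the set could pass too, such as NET1D at -3.78.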

How the results depend on the processing

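All 3 counts of called genes kept within 1.5 times their values under every alternative. For dM against dY the range was 10745 (filter of 5 FPKM) to 14185 (no filter), and 12364 to 12796 with 1 replicate left out. For wM against wY it was 7146 to 10356, and 7598 to 8032 with 1 replicate left out, and for the difference 7955 to 10240, and 8502 to 9303. With the replicate number as a block the counts were 13191, 8516 and 9393, and the block ended the call of none of the named genes. Same-numbered dM and dY libraries had deviations from their group means correlated at -0.141, 0.022 and -0.076. Differently numbered libraries had -0.18 to 0.177. With 3 libraries per group these values cannot tell whether the numbers pair the samples, and the labels do not say. Of 2051 values of 121 named genes under the alternatives, 2000 kept direction and call, 50 kept direction but lost the call and 1 turned, ATG2, at 0.030 with the length trend removed (limma, adjusted p = 0.8). For 104 genes no value changed its call. Calls of APS1, CATHB1, LHCB4.3, RPL33, SAG101, MCCB, AT1G79920 and AT2G21290 were lost when 1 or more single replicates were left out. Of 782 counts of list members 67 moved by more than 1.5 times, 17 of them under median-of-ratios scaling. The median of all genes moved by more than 0.1 with that scaling, to 0.05 against -0.16. On a gene of 1 kb, 3 reads in the shallowest of the dM and dY libraries make 0.171 FPKM, and a difference between values below that was not detectable at this depth.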

Other observations

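On the deposited scale immune receptor genes were mostly lower in dM leaves and more often higher than lower in wM leaves. Of 53 genes with the deposited family label NB-ARC, the nucleotide-binding class of immune receptors, 46 fell and 3 rose in dM leaves (median -0.99). In wM leaves 20 of these rose and 1 fell (median 0.36), and 48 were lower and 1 higher in dpe2/phs1 by the test of the difference. Genes with the family label TIR had 43 lower and 9 higher of 71 in dM leaves (median -0.65), against 34 higher and 1 lower in wM leaves (median 0.45). RPP13 (-2.46), a receptor for downy mildew, RPS4B (-1.98) and RLM3 (-1.83) fell. The helper receptors ADR1 (1.00), ADR1-L1 (0.84) and ADR1-L2 (1.01), which act with EDS1, rose. With length and purine trends removed the NB-ARC count was 24 lower and 7 higher of 52 (median -0.28) and the TIR count 29 lower and 12 higher of 70 (median -0.17). The shares lower were then no larger than the 46.9% over all genes. These families, and the proteasome, kinesin and UDP-glycosyltransferase families below, were taken from the deposited family labels after the values had been seen. Copies of the NB-ARC and TIR genes share reads.

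Proteasome subunit genes rose in 13 of 24 cases and fell in 3 (median 0.34) in dM leaves, against 10 lower and 0 higher in wM leaves (median -0.29), and 16 were higher and 0 lower in dpe2/phs1 by the test of the difference. PBB1 (0.82) and PBA1 (0.79), catalytic β subunits, were among those that rose. This rise did not hold with length and purine trends removed, where 6 were higher and 7 lower. Kinesins fell in 54 of 55 cases in dM leaves (median -1.86) and in 42 in wM leaves, and with length and purine trends removed 44 fell and 3 rose in dM leaves (median -0.86). UDP-glycosyltransferases rose in 45 of 73 cases and fell in 15 (median 0.80), with UGT87A2 at 2.76, UGT72B1 at 2.43 and UGT74F2, which glucosylates salicylic acid, at 2.31.

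Because LSU1 and SDI1 were among the largest rises, other genes known to respond to sulfur limitation were read afterwards. LSU3 (3.50), GGCT2;1 (2.98), a glutathione-degrading enzyme, SULTR1;2 (2.2), a high-affinity sulfate transporter, LSU2 (1.78), and APR2 (1.65), APR3 (1.28) and APR1 (0.71), which reduce sulfate, rose in dM leaves. SULTR2;1 did not pass the test (0.31 ± 0.16, limma, adjusted p = 0.085).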
